A study of Trichechus manatus latirostris with 11 samples.

Results

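The genes described here control signalling from the epidermal growth factor (EGF) receptor: 6 feedback inhibitors (ERRFI1, SPRY1, SPRY2, SPRY4, SPRED1 and SPRED2), 3 ligands (HBEGF, AREG and EREG) and the receptor itself, EGFR. They were chosen by role, with the group means of these same libraries already known, so the values of the comparison are given as a description and without a test. A gene was included when the transcript record of a row in the deposited table, taken without its version number, carried its symbol in RefSeq for the TriManLat1.0 assembly. This held for 6 of the 10 genes in 7 of 15298 rows, SPRY1 having 2 transcript records. The 6 genes comprise 4 of the 6 inhibitors (ERRFI1, SPRY1, SPRY2 and SPRED2), 1 of the 3 ligands (HBEGF) and EGFR, while SPRY4, SPRED1, AREG and EREG had no matching row and were not analysed here.

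EGF receptor ligands are made as membrane-bound precursors, which metalloproteases cut to release the growth factor. The receptor then signals through adaptor proteins to RAS, RAF, MEK and ERK, and active ERK switches on a set of genes within the hour. Some of these early genes encode brakes. ERRFI1 (also called MIG6) binds the kinase domain of the EGF receptor family and blocks it, Sprouty proteins restrain signalling between the receptor and RAF, and Spred proteins bring the RAS inhibitor neurofibromin to the membrane. In blood, monocytes and other leukocytes make HBEGF, AREG and EREG when they are stimulated, whereas EGFR is best known from epithelia.

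RNA from buffy coats, the layer of white cells between plasma and red cells in centrifuged blood, was sequenced for 11 adult Florida manatees. The red tide group comprised 4 animals rescued from a bloom of a toxic dinoflagellate and treated for the illness at Lowry Park Zoo, Tampa. The control group comprised 7 animals, of which 4 were sampled at Crystal River, 2 in the Indian River Lagoon, Brevard County, and 1 at the same zoo during recovery from pneumonia. By the methods of the study, the red tide animals were sampled on arrival or after a week of treatment and their buffy coats were frozen at once, and the controls were sampled after the bloom, all but 1 of them in other places. Date, treatment and freezing thus cannot be told apart from the illness, nor can place, since the table does not show which library is that of the control at the zoo.

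The deposited table gives normalized counts, that is reads divided by a size factor for the depth of each library, as means over groups. Its columns do not name the groups. In every row the overall mean weighted the first group mean by 4 and the second by 7, and the means are therefore named here by their number of libraries, which for 4 matches the number of red tide animals and for 7 that of controls. The link of either mean to red tide rests on these sizes and on the order of names in the title of the table. The directions in which the study describes its genes run the other way, so which mean is that of red tide is not settled here, and every direction below is stated between the means only. A low mean can be split into the whole reads of its libraries, since a read has its own worth in each library. This was tried where the 4-library mean was 80 or less, giving a single solution in 9632 of 9634 rows, and where the 7-library mean was 6 or less, giving one in 4462 of 4505. Size factors ran from 0.372 to 1.56 in the 4 libraries and from 0.702 to 1.73 in the 7, and a library is named below by its size factor, since it could not be traced to an animal.

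All 7 rows were higher in the 4-library mean. The difference was at least 2-fold in 6 rows, the exception being EGFR, and no row was 2-fold higher in the 7-library mean. Over the whole table, 23.9% of rows were at least 2-fold higher in the 4-library mean and 10.4% at least 2-fold higher in the 7-library mean. The folds of ERRFI1, HBEGF and both records of SPRY1 lay between 8.71 and 94.9, and those of SPRY2 and SPRED2 were 2.46 and 3.46. On the log2 scale, the median ratio between these means was 3.12 for the 7 rows, against 0.14 for the table as a whole. Because the genes were picked with these ratios in view, nothing is inferred from their position against the background. In RNA from mixed cells, more cells of a type and more RNA per cell cannot be told apart.

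**Figure D1:**
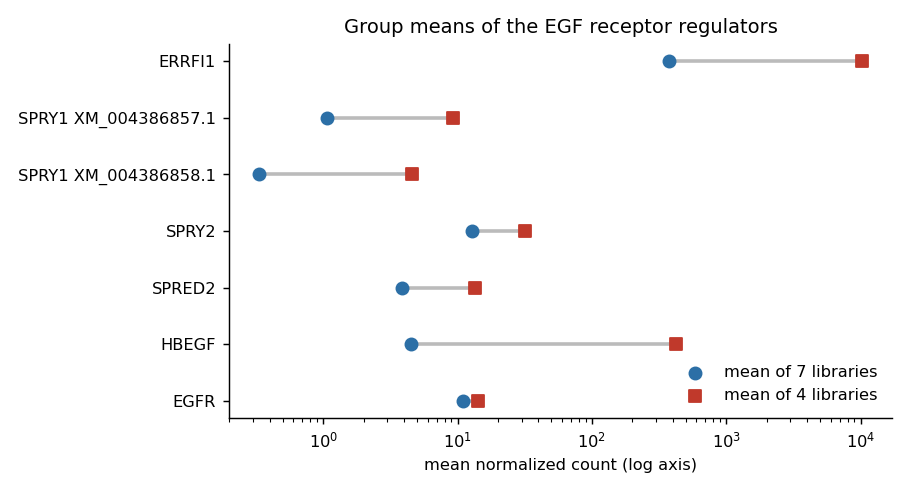
Mean normalized count of each transcript record on a log axis, with a circle for the mean of 7 libraries and a square for the mean of 4 libraries. ERRFI1 had the highest means in both groups (373 and 10294), HBEGF had the longest line (4.47 to 424), and the symbols of EGFR nearly touched (10.9 and 14.2).

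**Figure D2:**
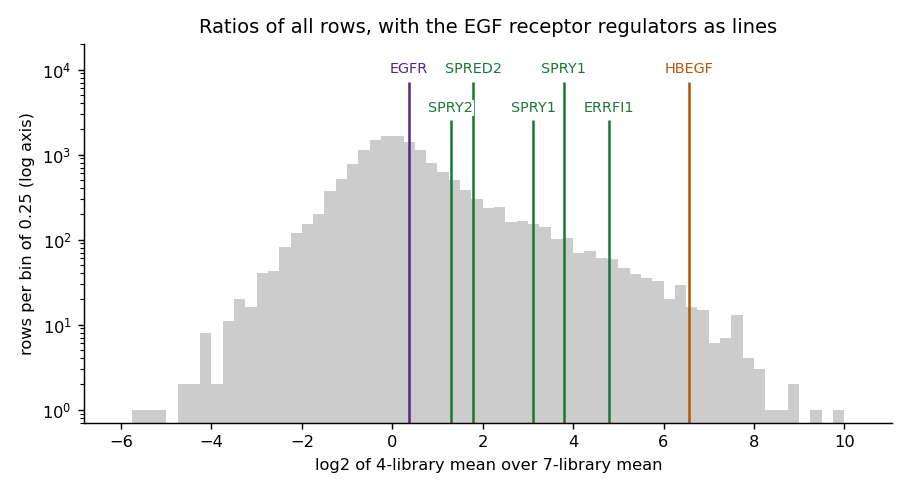
Histogram of log2 ratios (4-library mean divided by 7-library mean) for all 15298 rows (log axis of rows per bin), with a line for each record of an inhibitor (green), of HBEGF (orange) and of EGFR (purple). EGFR at 0.37 lay near the centre of the distribution, and HBEGF at 6.57 in its far right tail.

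ERRFI1 (XM_004385132.1) was the strongest of the inhibitors by its ratio and rested on the most reads. The authors' mean was 10294 normalized counts over the 4 libraries and 373 over the 7, a 27.6-fold difference, and the log2 ratio was 4.79. With the known size factors, the first mean stands for between 15306 and 64194 reads in the 4 libraries together, and the second for between 1832 and 4516 in the 7, so counting error is small on both sides. Means this high have too many solutions to give the spread between libraries, and whether all 4 libraries shared the high level is therefore not known. In the table, 319 rows had a larger ratio than ERRFI1. The records whose pair of group means lay nearest to that of ERRFI1, by distance over the 2 means on the log2 scale and with no correction for transcript length, were RGS1 (12447 and 467, distance 0.43), TNFAIP3 (7412 and 486, distance 0.61) and BTG2 (6909 and 875, distance 1.36). RGS1 is a brake on G protein signalling, TNFAIP3 (A20) on NF-kB signalling and BTG2 on proliferation.

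SPRY1, a Sprouty inhibitor of the RAS-ERK pathway, had 2 transcript records, and the counting could have divided reads of 1 gene between them. In the record XM_004386857.1 the 4 libraries, in order of falling size factor (1.56, 1.03, 0.620 and 0.372), held 6, 8, 9 and 4 reads, or 3.85, 7.79, 14.5 and 10.8 normalized counts. Of the 7 libraries, 4 had no read, and the other 3 had 1.16, 2.85 and 3.41 normalized counts from 8 reads in all. Every one of the 4 thus lay above every one of the 7, although the lowest (3.85) and the highest (3.41) were close. Such a separation was found in 124 of the 4444 rows with reads known in each library (2.79%). The means were 9.23 ± 4.52 (SD, n = 4) and 1.06 ± 1.49 (SD, n = 7), an 8.71-fold difference, for which the 8 reads alone allow 4.42-fold to 20.2-fold (exact 95% Poisson limits, counting error only). Without the library of size factor 1.17, 1 of the 7, the fold was 13.8.

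The other SPRY1 record, XM_004386858.1, was found in fewer libraries. The libraries of size factor 1.03 and 0.620 held 9 and 6 reads, or 8.76 and 9.67 normalized counts, and the other 2 of the 4 had none. Over the 7 libraries there were 2 reads in all, each in a different library. The groups overlapped, because libraries without a read occurred in both. The means of 4.61 ± 5.33 (SD, n = 4) and 0.333 ± 0.587 (SD, n = 7) gave a 13.9-fold difference, which the counting error of those 2 reads widens to between 3.84-fold and 114-fold. It was 8.78-fold without the library of size factor 0.620 and 30.6-fold without that of size factor 0.702. With the reads of both records added, the 4 libraries had 3.85, 16.5, 24.2 and 10.8 normalized counts and the highest of the 7 had 4.27, so for SPRY1 as a whole the groups overlapped by 1 library on either side. The added means were 13.8 ± 8.63 (SD, n = 4) and 1.39 ± 1.76 (SD, n = 7), a 9.94-fold difference from 42 and 10 reads.

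SPRY2 (XM_004371404.1), the Sprouty protein that was measured from the most reads, had the smallest ratio among the inhibitors. In order of falling size factor, the 4 libraries held 82, 18, 12 and 14 reads, which corresponds to 52.6, 17.5, 19.3 and 37.7 normalized counts. All 4 exceeded the mean of the 7 libraries, 12.9. The single values of the 7 could not be recovered: 236 combinations of reads fitted their mean, with between 81 and 141 reads in all, and whether the groups overlapped is not known. The 4-library mean of 31.8 ± 16.6 (SD, n = 4) was 2.46-fold the 7-library mean, and this fell to 1.92-fold without the library of size factor 1.56.

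SPRED2 (XM_004369262.1), the Spred protein with a row, was 3.46-fold higher in the 4-library mean. The 4 libraries, in the same order, held 10, 11, 6 and 10 reads, or 6.41, 10.7, 9.67 and 26.9 normalized counts, and the smallest library stood well above the other 3. The 7 libraries ranged from 0 to 9.96 normalized counts with a median of 2.85, from 30 reads, and 1 of them had no read. The groups overlapped: 2 of the 4 libraries exceeded the highest of the 7, and 5 of the 7 lay below the lowest of the 4. The means were 13.4 ± 9.17 (SD, n = 4) and 3.88 ± 3.73 (SD, n = 7), and the fold was 2.30 without the library of size factor 0.372.

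**Figure D3:**
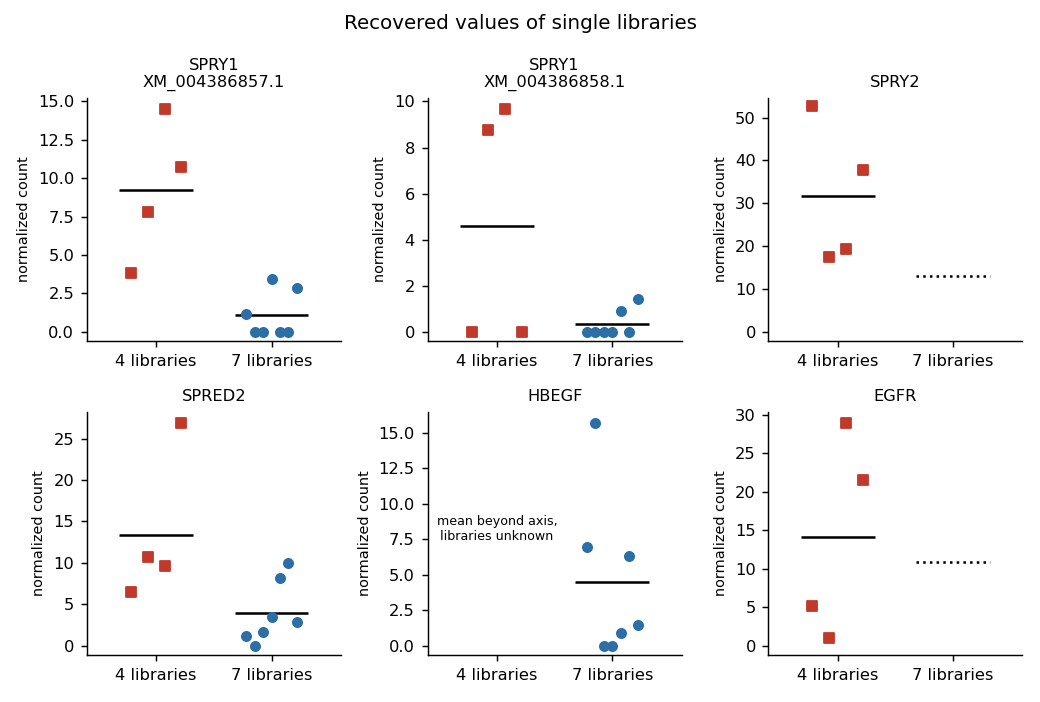
Normalized counts of single libraries where they could be recovered, with squares for the 4 libraries and circles for the 7 in order of falling size factor, a solid line for a mean whose libraries are shown and a dotted line for a mean whose libraries are not known. The groups are apart in the first SPRY1 record (lowest of the 4 at 3.85, highest of the 7 at 3.41), overlap in the second and in SPRED2, and the 4 libraries of EGFR lie on both sides of the 7-library mean; the 4-library mean of HBEGF (424) is beyond its axis.

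HBEGF (XM_004381068.1), heparin-binding EGF-like growth factor, a ligand of EGFR and ERBB4, had the largest ratio of the 7 rows. The authors' mean was 424 normalized counts over the 4 libraries and 4.47 over the 7, a 94.9-fold difference, and 62 rows of the table had a larger ratio. The 4 libraries together held at least 678 reads in each of the 146 combinations that fitted their mean, so the fit did not settle how the reads were spread among them. The 7 libraries were known singly and were uneven. From the deepest to the shallowest (size factors 1.73, 1.53, 1.19, 1.17, 1.11, 1.10 and 0.702), they held 12, 24, 0, 0, 1, 7 and 1 reads, or 6.93, 15.7, 0, 0, 0.904, 6.34 and 1.42 normalized counts. The library of size factor 1.53 alone contributed 50.1% of their sum, and without it the fold was 163. Among rows with a 7-library mean of 6 or less that could be split into reads, 1113 had at least 25 reads over these 7 libraries. In these low rows the highest library contributed a median of 34.6% of the sum, and 36.2% had, like HBEGF, at least 2 libraries without a read. The counting error of the 45 reads allows a fold of 70.9 to 130 (exact 95% Poisson limits). Among the 7 libraries, HBEGF, SPRY1 and SPRED2 were highest in different ones: the library highest for HBEGF had no read of either SPRY1 record or of SPRED2, and SPRED2 was highest in the library of size factor 1.10.

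EGFR (XM_004383965.1), the receptor, was the row whose means were closest. The 4 libraries held 8, 1, 18 and 8 reads in order of falling size factor, or 5.13, 0.974, 29.0 and 21.5 normalized counts, so that 2 lay above the 7-library mean of 10.9 and 2 below it. The 4-library mean of 14.2 ± 13.3 (SD, n = 4) was 1.30-fold the 7-library mean (log2 ratio 0.37), a difference smaller than the spread among the 4. Without the library of size factor 0.620 the direction turned, with a log2 ratio of -0.25. The 7 libraries held between 74 and 116 reads in the 80 combinations that fitted, and their spread is not known. No difference in EGFR beyond the spread among the 4 libraries was seen.

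Within the 4 libraries, the inhibitors and the receptor were not all highest in the same library. The first SPRY1 record was highest in the library of size factor 0.620, with 39.3% of the sum over the 4, as were the second SPRY1 record and EGFR (52.5% and 51.2%). SPRY2 was highest in the library of size factor 1.56 (41.4%) and SPRED2 in that of size factor 0.372 (50.1%). For comparison, among 5392 rows with at least 25 reads over the 4 libraries, the highest library held a median of 40.8% of the sum, with quartiles of 34.7% and 49.4%, and it was the library of size factor 0.620 in 29.8% of them and of size factor 0.372 in 33.3%. For EGFR, 89.2% of the sum lay in these 2 shallowest libraries. The second SPRY1 record had only 15 reads over the 4 libraries, under the 25 of the comparison rows, so its share has no like background.

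**Figure D4:**
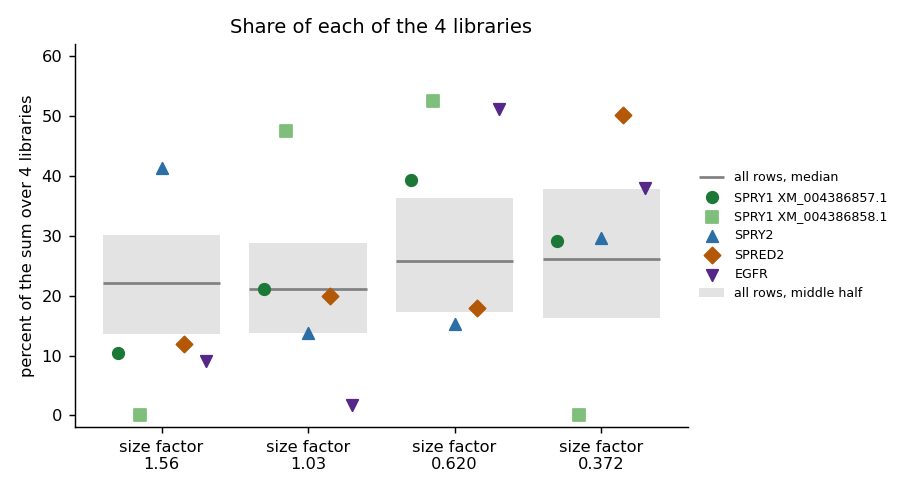
Share of each of the 4 libraries in the sum of their normalized counts (percent), with a symbol for each record, grey boxes for the range between the quartiles of 5392 rows and grey lines for their medians. SPRY2 stood highest in the deepest library (41.4%), EGFR and both SPRY1 records in the library of size factor 0.620, and SPRED2 in the shallowest (50.1%).

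The rest of the pathway was described with lists written by role, at a time when earlier results of these data were already known. The lists had 55 rows for 50 of their 68 genes. Of the 55 rows, 16 were at least 2-fold higher in the 4-library mean, 4 at least 2-fold higher in the 7-library mean, and the median log2 ratio was 0.26; that is 29.1% and 7.27% of the rows, beside 23.9% and 10.4% of the whole table. By list, the median ran from -0.18 for the adaptors and cascade enzymes to 1.96 for the genes induced by ERK, as the plot of ratios by list shows.

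Adaptors and enzymes from the receptor to ERK were near equality or lower in the 4-library mean. None of 19 rows was 2-fold higher in the 4-library mean, beside 23.9% of the whole table, and their median log2 ratio was -0.18. At least 2-fold lower were 3 rows (15.8%, beside 10.4% of the whole table). Among these were GAB2, an adaptor (83.9 and 220 normalized counts over the 4 and the 7 libraries), and MAP2K2, the kinase MEK2 (90.5 and 226). SOS1, the exchange factor that loads RAS with GTP, had the highest overall mean of this list, with 1235 and 1676 normalized counts.

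The metalloproteases that free EGF receptor ligands and their regulators differed in both directions, with 2 of 8 rows at least 2-fold higher in the 4-library mean, none 2-fold higher in the 7-library mean and a median log2 ratio of 0.15. These are 25% and 0% of the list, beside 23.9% and 10.4% of the whole table, and nothing is read from these counts. ADAM10 had almost the same mean in both groups (2549 and 2545 normalized counts), and ADAM17, the main sheddase of HBEGF, had 62.9 and 113. The 2 higher rows were ADAM9 (3462 and 1472, 2.35-fold) and TIMP3, an inhibitor of ADAM17 (3.77 and 1.51, log2 ratio 1.32, from 19 and 13 reads). Of the 19 TIMP3 reads, 16 lay in the library of size factor 1.56.

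Other receptors and ligands of the EGF receptor family were all weak, with 5 rows for 11 genes and an overall mean under 10 in each. In 3 of the 5 rows the 4-library mean was at least 2-fold higher (ERBB3, NRG2 and EPGN), in none the 7-library mean, and the median log2 ratio was 1.88. Over the whole table the shares were 23.9% and 10.4%. ERBB3, a receptor that signals in pairs with other family members, had 18.5 and 3.30 normalized counts. EPGN, the ligand epigen, had 1.77, from 8 reads in 2 of the 4 libraries, and 0.0826, from a single read. Around its 21.4-fold difference, the counting error of that single read alone allows 3.84-fold to 846-fold.

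Of 12 rows of other negative regulators, 3 were at least 2-fold higher in the 4-library mean, 1 was 2-fold higher in the 7-library mean and the median log2 ratio was 0.24. These are 25% and 8.33% of the list, close to the shares of 23.9% and 10.4% in the whole table, so nothing is read from these counts. CBL, a ubiquitin ligase that marks the activated receptor for breakdown, had the highest overall mean (714 and 1091 normalized counts). The 3 higher rows were LRIG1 (126 and 59.6, 2.11-fold) and LRIG3 (8.66 and 0.259), which belong to a family of membrane proteins known to restrain growth factor receptors, and SOCS5 (6.73 and 0.775, 8.69-fold), linked to EGF receptor turnover. The 7-library mean of LRIG3 came from 2 reads, which allow a fold of 9.27 to 277 around 33.5. The row higher in the 7-library mean was 1 of the 2 records of NF1, the neurofibromin through which Spred proteins act (2.52 and 5.85); the other had 8.17 and 9.38.

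Genes known to be switched on by ERK had 8 of 11 rows at least 2-fold higher in the 4-library mean, none 2-fold higher in the 7-library mean and a median log2 ratio of 1.96. That is 72.7% and 0% of the rows, beside 23.9% and 10.4% of the whole table. FOS, which encodes a subunit of the AP-1 transcription factor, had the highest overall mean (4972 and 1277 normalized counts, log2 ratio 1.96). FOSL1, another AP-1 subunit, had the largest ratio, 62.6-fold, from 5.16 and 0.0826 normalized counts, and the single read behind the second value allows 11.2-fold to 2471-fold. Its first value came from 12 reads and was uneven, with 2.57, 1.95, 0 and 16.1 normalized counts in the 4 libraries in order of falling size factor. DUSP5, a phosphatase that inactivates ERK in the nucleus, had 1357 and 101 (13.4-fold). Many of these genes also answer to other signals. Some were known to differ in these libraries when the list was written, so nothing is inferred from the shares.

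**Figure D5:**
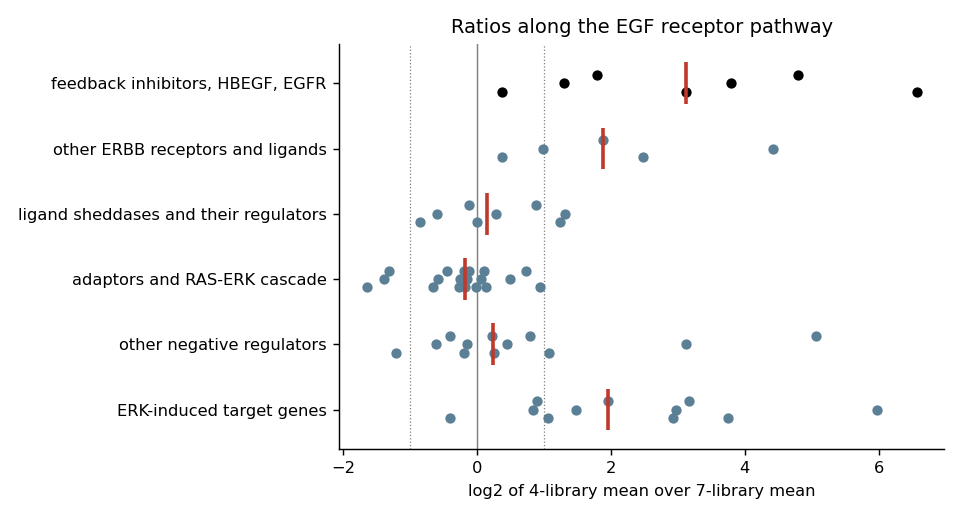
Log2 ratios (4-library mean divided by 7-library mean) for each row of the inhibitors, HBEGF and EGFR (black) and of the pathway lists (blue), with the median of each list in red, a solid line at 0 and dotted lines at a 2-fold difference. The adaptors and cascade enzymes centre on -0.18, and the ERK-induced genes on 1.96.

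Markers of blood cells and of other tissues were examined in the same table. The 3 pan-leukocyte genes with a row (CD53, ITGB2 and CORO1A) summed to 5781 normalized counts over the 4 libraries and 5634 over the 7. Of 4 neutrophil marker rows, 3 were at least 2-fold lower in the 4-library mean, with sums of 626 and 2970 over all 4 rows. MPO went the other way (4.44 and 2.34). The platelet markers ITGA2B, GP9 and GP1BA were higher, with 2 of 3 rows at least 2-fold higher and sums of 4134 and 1978. Monocyte markers summed to 2028 and 2664, with 1 of 5 rows 2-fold higher in the 4-library mean. That row was 1 of 2 records of VCAN (61.6 and 25.3), and the other record had 205 and 228. Lymphocytes were represented by CD2 (123 and 285) and MS4A1 (370 and 415), while erythroid markers summed to 182 and 486. The markers of eosinophils, basophils and mast cells with a row went in opposite directions: CPA3 was higher in the 4-library mean (7.33 and 3.77) and EPX lower (5.69 and 26.3). Of the epithelial markers, which bear on EGFR, 3 of 7 had a row (CDH1, KRT19 and KRT5), and 2 of these 3 rows were at least 2-fold higher in the 4-library mean. CDH1 had 11.6 and 5.62, KRT5 2.42 and 0.165, and KRT19, which was lower, 11.6 and 23.0, so that the sums were 25.6 and 28.7; KDR, of endothelium, had 449 and 291, and PDGFRA, of fibroblasts, 12.2 and 3.06. Over the whole table, 23.9% of rows were at least 2-fold higher in the 4-library mean and 10.4% in the 7-library mean. With so few rows per cell type, nothing is read from the marker counts. The part of these marker shifts in the values of the EGF receptor regulators was not tested.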

How the data were processed

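RNA-seq of buffy coats from 4 red tide and 7 control manatees was analysed from the authors' deposited table of group means. The authors filtered reads with Cutadapt, mapped them to TriManLat1.0 with Bowtie2, removed duplicates and counted uniquely mapped reads per gene sequence with in-house scripts; no source used here names the counting program, its strand setting or the annotation release, so overlapping antisense transcripts cannot be told apart. The deposited values are a signal, namely counts scaled by a size factor per library and averaged by the authors, once for the 11 libraries and once per group. The columns of the authors' own comparison (fold change, its log2 value, p-value and adjusted p-value) were not used. There were 0 unused columns of single samples. The total of reads per library is not known, so size factors stand for depth; the largest was 4.66 times the smallest.

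Ratios are the 4-library over the 7-library mean, with no pseudocount and no filter. The members and lists were chosen with earlier results of these data known. No test across genes was run: values per library were recovered for 4444 low rows only, and the members were chosen on this contrast. Whole reads of single libraries were recovered from the lowest means, to within 0.6 of the last deposited digit. In simulated data, 99.9% of 1905 means of 4 libraries and 98.8% of 889 means of 7 libraries gave 1 solution, which was the true one in 100% of these. Symbols were matched for 10080 rows (65.9%). Genes named from the pathway lists are those with the highest overall mean and with the largest ratio in each direction among rows 2-fold apart, and the 3 records nearest to ERRFI1; ADAM9, ADAM17, GAB2, MAP2K2, NRG2, LRIG1, SOCS5 and DUSP5 were named after their values were seen. Replicates are separate animals. Intervals cover only the counting error of the reads in the 7 libraries, with the 4-library mean taken as exact. Python 3.11.15, numpy 2.4.6, scipy 1.17.1 and pandas 2.3.3 were used. No protein or promoter sequences are shown. A gene that the rule for named genes would include is not reported here.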

Additional observations from a re-analysis of the deposited data

How the results depend on the processing

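The count of 6 rows at least 2-fold higher in the 4-library mean came to 3 with rows of an overall mean of at least 10 only, which leaves out both SPRY1 records and SPRED2, and to 1 (SPRY2) with records matched by version number, since fewer records match. With each recovered library left out in turn it lay between 5 and 6, and the count higher in the 7-library mean between 0 and 0. For the pathway lists, the count of 16 came to 9 at a fold of 4 (1839 of all 15298 rows). It came to 7 with an overall mean of at least 10, which 33 of the 55 rows reached, and to 3 with version numbers. Only 1658 rows of the whole table matched with version numbers. The share of all rows past 2-fold was not counted under the last 2 settings, so nothing is read from these lower counts. The count of 4 higher in the 7-library mean came to 0 at a fold of 4 and to 1 with version numbers. Of 63 alternative ratios of single records, 62 kept their direction, but part of this was fixed in advance. Adding 1 to both means cannot turn a direction, and the median log2 ratio used for centring was only -0.012. ERRFI1 had no other alternative, and for HBEGF none of the 4 libraries could be left out. The log2 ratio of EGFR ran from -0.25 when the library of size factor 0.620 was left out to 0.76 when that of size factor 1.03 was. With 1 added to both means, the fold of the SPRY1 records was 4.96 and 4.21. Medians over libraries gave a value for SPRED2 alone (log2 ratio 1.84), since the median of the 7 libraries was 0 for SPRY1. No paired analysis was possible because the table holds group means and the recovered libraries carry no replicate number.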

Other observations

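Single libraries were also known for 18 of the 55 rows of the pathway lists, and the groups did not overlap in 1 of them, ETV5, or 5.56%, beside 2.79% (124 of 4444) of all rows with reads known in every library; nothing is inferred from 1 row. ETV5, a transcription factor of the ETS family that is induced by ERK signalling, had 22.5, 6.81, 16.1 and 37.7 normalized counts in the 4 libraries, in order of falling size factor, and between 0 and 5.43 in the 7. It shared its highest library, that of size factor 0.372, with SPRED2.

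ERBB3 was spread unevenly in both groups. The 4 libraries had 0, 2.92, 38.7 and 32.3 normalized counts, so that, as for EGFR, the libraries of size factor 0.620 and 0.372 held most of the sum. Of the 7 libraries, that of size factor 1.53 had the highest value, 13.1, and it was also the highest of the 7 for HBEGF; 3 of the 7 had no read of ERBB3. LRIG3 had 0, 2.92, 12.9 and 18.8 normalized counts in the 4 libraries, again highest in the 2 shallowest, whereas SOCS5 had 7.70, 16.5, 0 and 2.69. These profiles were picked out after their values had been seen, and the part of library depth in them was not tested.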
